A study of Arabidopsis thaliana with 18 samples.

Results

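The transcripts described here were those higher in phosphate-starved than in mock plants in both organs of Arabidopsis thaliana. A probe set, the group of array probes read as 1 value, was a member if its mean log2 value was at least 1 higher in starved than in mock roots and in starved than in mock shoots, with its lowest starved array above its highest mock array in each organ. A log2 difference of 1 is a factor of 2. Of 22810 probe sets, 64 were controls of the manufacturer and were left out, and 77 of the others met these conditions. From these, 11 probe sets of 10 genes were set aside by name, which left 66 members. The members were chosen by their values in starved and mock arrays, so their starved minus mock differences, called rises below, are described and not tested.

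Phosphate status is read in plant cells through PHR1 and related MYB transcription factors, which SPX-domain proteins hold back when inositol pyrophosphates signal that phosphate is plentiful. When phosphate runs short, the released factors turn on genes for phosphate uptake, for phosphatases that free phosphate from organic compounds, and for the replacement of membrane phospholipids by galactolipids and sulfolipids. Several of these genes are widely used as markers of phosphate starvation in roots and leaves.

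Total RNA came from roots and shoots of wild-type Col-0 plants in aerated MGRL hydroponic medium, hybridised to ATH1 arrays. All plants had 20 days of full medium. Mock plants then had 10 more days of full medium, starved plants 10 days of medium in which MES buffer took the place of sodium phosphate, and replete plants the same 10 days without phosphate and then 3 days of full medium. The 6 groups held 3 arrays each, which the labels call biological replicates. Mock and starved plants were 30 days old and replete plants 33 days old, so age and return to phosphate changed together. The labels do not say how many plants were pooled for an array, and the p-values below measure only the spread between these arrays.

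The median log2 value of an array lay between 5.88 and 5.98. The mean over 3 green tissue markers (PRK, RCA and LHCB4.1) was at most 5.55 in root arrays and at least 12.30 in shoot arrays, and the mean over 5 root markers (PYK10, EXPA7, EXPA18, SHV2 and PRP3) was at least 8.32 in root arrays and at most 4.61 in shoot arrays. No array went against its organ label. Within roots the root marker mean was 8.75 to 8.93 in mock, 9.36 to 9.51 in starved and 8.32 to 8.46 in replete arrays. The 5 markers did not move alike. Starved minus mock in roots was -0.14 for PYK10, 0.42 for EXPA7, 0.67 for EXPA18, 0.89 for SHV2 and 1.14 for PRP3. Only SHV2 and PRP3, 2 of the 5, were called higher in starved roots. The part of these markers in the members' differences was not tested. In shoots the root marker mean was 4.57 to 4.61 in mock, 4.32 to 4.41 in starved and 4.55 to 4.61 in replete arrays. The green marker mean was 4.81 to 5.50 in mock, 4.82 to 5.24 in starved and 5.30 to 5.55 in replete roots, and none of the 3 was called in the response of either organ. In whole organs, fewer cells of a type and less RNA per cell cannot be told apart.

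A single gene could be given for 57 of the 66 members. The platform table named 23 of them, and probe set names in the study's supplementary tables named 34 more. The second source covers mainly probe sets that the study had singled out, so a pathway gene without a named probe set here was not measured as absent. For the same reason, listed genes that were no members but have a name lean towards probe sets the study had called. The study called far more probe sets in roots than in shoots. How the calls among these genes divide between the organs is therefore not read as a result. A further 3 members matched several genes, and 6 had no name here. Pathway lists, written with earlier results of these data known, held 25 of the 66 members.

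Over the 66 members the median rise was 2.07 in roots and 1.60 in shoots, against medians of 0.03 and 0.00 over all probe sets. Rises ran from 1.0 to 6.58 in roots, where 36 members reached 2, 17 reached 3 and 9 reached 4. In shoots they ran from 1.0 to 5.54, where 23 reached 2, 9 reached 3 and 3 reached 4. Taken alone, the condition in roots was met by 1.31% of the probe sets that were no controls and the condition in shoots by 0.673%.

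The starved arrays of a group were not equally high. Taking each member's value minus its mock mean, the median over the members was 2.13, 2.20 and 1.82 in the starved root arrays 1, 2 and 3, and 1.72, 1.95 and 1.32 in the starved shoot arrays. Array 3 was the lowest of its group for 56 members in roots and 57 in shoots, and array 2 the highest for 49 and 56. Most members thus moved up and down together between arrays of 1 group, and they are not 66 independent observations. Without both arrays numbered 3, the same rule gave 85 members, of which 65 were among the 66.

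The rise was the larger in roots for 46 members and in shoots for 20, with a median root minus shoot difference of 0.33. It was larger by at least 1 in roots for 16 members and in shoots for 2. The largest rises in roots were those of MGD3, PEPC1, PAP17, PPsPase1 and SPX3, and the largest in shoots those of PPsPase1, GDPD1, MGD3, PEPC1 and MGD2. PAP17 was far from equal rises, with 6.02 in roots and 2.49 in shoots, and GDPD1 lay on the other side, with 4.19 and 5.24.

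Phosphate signalling was represented by SPX1, SPX2 and SPX3, which encode small proteins made of little more than the SPX domain. SPX1 and SPX2 are known to bind PHR1 when phosphate is present. In roots SPX1 had log2 values of 6.29, 6.22 and 6.50 in mock, 11.70, 11.94 and 11.39 in starved and 6.18, 5.83 and 5.73 in replete arrays. In shoots its values were 7.26, 7.50 and 7.91 in mock, 11.21, 11.31 and 10.61 in starved and 6.39, 6.73 and 6.25 in replete arrays. The starved arrays stood far above the rest in both organs, and in each organ all 3 replete arrays lay below all 3 mock arrays. The rise of SPX1 was 5.34 in roots and 3.49 in shoots.

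SPX3 had like values in mock plants of both organs, at 3.71, 3.47 and 3.61 in roots and 3.47, 3.43 and 3.0 in shoots on the log2 scale. Starved arrays had 9.73, 9.53 and 8.65 in roots and 6.67, 7.14 and 5.41 in shoots. Replete arrays had 4.02, 3.61 and 3.49 in roots and 3.92, 3.85 and 3.82 in shoots. In shoots the replete arrays lay just above all mock arrays, and in roots the replete and mock arrays overlapped. SPX2 had a smaller rise, of 2.15 in roots and 1.61 in shoots. Its mean was 7.10 ± 0.02 in mock, 9.25 ± 0.25 in starved and 7.17 ± 0.12 in replete roots (SD, n = 3). In shoots its mean was 7.31 ± 0.04 in mock, 8.92 ± 0.21 in starved and 6.89 ± 0.03 in replete arrays. Replete shoots lay below mock shoots in every array for SPX2, and in roots replete and mock arrays were close.

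Of the 24 genes listed for phosphate signalling, 10 had a named probe set. Besides the 3 SPX members there were 8 probe sets of 7 genes, which by construction fell short of the rule in at least 1 organ. At a limma adjusted p at or under 0.001, 2 of the 8 were higher in starved roots, a call made for 1.55% of all probe sets, and 1 was higher in starved shoots, a call made for 0.386%. The calls were those of AT3G25790 in roots (1.79, SE 0.23) and of AT1G68670 in roots (1.54, SE 0.10) and shoots (0.93, SE 0.10). Both genes were also named to be set aside, but they fell short of the rule in shoots and so are counted here. None of the 8 was called lower.

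ITPK2, which encodes an inositol phosphate kinase, and PFA-DSP4, which encodes a phosphatase of the atypical dual-specificity family, were further members. ITPK2 had log2 values of 7.22, 7.40 and 7.06 in mock, 9.0, 9.02 and 9.08 in starved and 7.60, 8.29 and 8.35 in replete roots. The shoot arrays had 6.09, 6.10 and 6.06 in mock, 7.95, 8.06 and 7.04 in starved and 6.04, 5.83 and 5.48 in replete arrays. Replete roots stayed above all mock roots, whereas all 3 replete shoot arrays lay below all mock shoot arrays. Of its rise, 52.8% was reversed in roots, as the fall from starved to replete in percent of the rise, and 119% in shoots. PFA-DSP4, named here after its values were seen, had a rise of 3.11 in roots and 2.12 in shoots, and 88.3% and 114% of these rises were reversed.

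Phosphate transport was represented by PHO1;H1, a relative of the phosphate exporter PHO1 that loads phosphate into the xylem, and by PHF1, an endoplasmic reticulum protein that lets phosphate transporters of the PHT1 family leave for the plasma membrane. PHO1;H1 had log2 values of 6.52, 6.60 and 6.20 in mock, 8.80, 8.62 and 8.39 in starved and 6.66, 6.34 and 6.02 in replete roots. In shoots the values were 5.41, 5.21 and 5.13 in mock, 7.81, 7.92 and 7.45 in starved and 4.85, 4.92 and 4.56 in replete arrays. Replete shoots lay below all mock shoots for this gene, and replete roots overlapped with mock roots. PHF1 had means of 8.54 ± 0.11, 10.58 ± 0.08 and 8.40 ± 0.06 in mock, starved and replete roots (SD, n = 3). In shoots its means were 7.18 ± 0.05, 8.61 ± 0.24 and 6.78 ± 0.05. All replete arrays of PHF1 lay below all mock arrays in shoots, and in roots the highest replete array met the range of the mock arrays.

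Of 19 listed transport genes, 10 had a named probe set, and 5 of the 8 that were no members were called higher in starved roots and none in starved shoots. The 5 included PHT1;8 (log2 difference 4.16, SE 0.16 in roots, and -0.01 in shoots) and PHT1;9 (2.94, SE 0.17, and 0.41), which encode phosphate transporters of the plasma membrane. They differ from the members by the rule itself.

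G3Pp1, which encodes a permease of the glycerol-3-phosphate family, had a rise of 3.61 in roots and 2.06 in shoots. Its root values were 7.78, 7.05 and 7.49 in mock, 11.12, 11.10 and 10.93 in starved and 7.35, 6.28 and 5.95 in replete arrays on the log2 scale. In shoots they were 7.97, 7.40 and 7.55 in mock, 9.88, 10.12 and 9.11 in starved and 7.51, 6.96 and 6.41 in replete arrays. The replete mean was below the mock mean by 0.91 in roots and 0.68 in shoots, but replete array 1 overlapped with the mock arrays in both organs and the difference was not called in either. Of the 4 other listed permeases only G3Pp3 had a named probe set, and it was called in neither organ.

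Purple acid phosphatases release phosphate from organic esters, some of them outside the cell. PAP12, PAP17 and PAP24 were members. PAP17 had log2 values of 4.79, 4.87 and 4.65 in mock, 10.95, 11.11 and 10.32 in starved and 5.55, 5.37 and 5.42 in replete roots. Its values in shoots were 8.37, 7.68 and 7.96 in mock, 10.55, 10.82 and 10.12 in starved and 7.42, 7.27 and 6.96 in replete arrays. The starved values of PAP17 were alike in the organs while its mock values were not, and the mock root minus shoot difference was -3.23 (SE 0.21). Replete arrays lay above all mock arrays in roots and below all mock arrays in shoots.

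PAP12, whose product is secreted, had a rise of 2.13 in roots and 2.37 in shoots. Its means were 8.40 ± 0.06, 10.53 ± 0.23 and 8.26 ± 0.06 in mock, starved and replete roots, and 7.62 ± 0.09, 9.99 ± 0.42 and 7.83 ± 0.20 in shoots (SD, n = 3). The arrays of each group were close for PAP12, apart from starved shoots. PAP24 spread widely in starved shoots, at 5.23, 6.52 and 4.54 against 3.0, 2.98 and 3.12 in mock shoots. Its starved root values were 5.19, 5.40 and 4.37, against 3.48, 2.95 and 2.88 in mock roots. Of 28 listed purple acid phosphatase genes, 11 had a named probe set, 1 of which was set aside by name. Of the 7 others, 5 were called higher in starved roots and none in starved shoots, among them PAP22 (2.17, SE 0.26 in roots, and 0.84, SE 0.26 in shoots) and PAP6 (2.15, SE 0.17, and -0.06).

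PPsPase1 and PEPC1 encode related small phosphatases, the first reported to act on pyrophosphate and the second on phosphoethanolamine and phosphocholine. This PEPC1 is not a phosphoenolpyruvate carboxylase. PPsPase1 had log2 values of 4.61, 4.86 and 4.93 in mock, 11.18, 10.98 and 10.22 in starved and 4.37, 4.82 and 4.48 in replete roots. In shoots it had 3.68, 3.60 and 3.57 in mock, 9.76, 10.12 and 7.60 in starved and 4.04, 3.58 and 4.09 in replete arrays. The rise, of 5.99 in roots and 5.54 in shoots, was the largest of all members in shoots, where starved array 3 lay well below the other starved arrays. PEPC1 had 3.01, 2.62 and 2.62 in mock, 9.31, 9.32 and 8.03 in starved and 2.43, 2.44 and 2.44 in replete roots. Its shoot values were 2.75, 2.68 and 2.48 in mock, 6.95, 7.68 and 5.16 in starved and 2.53, 2.58 and 3.06 in replete arrays, with starved array 3 again the lowest. Mock and replete values of PEPC1 were near the low end of the array's range in both organs.

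PPA4, a soluble pyrophosphatase gene, had smaller rises of 1.41 in roots and 1.51 in shoots. Of 8 listed genes for other phosphatases and pyrophosphatases, 5 had a named probe set. The 2 that were no members, PPa3 and PPa5, were called higher in starved roots (1.81, SE 0.19, and 1.10, SE 0.11) and not in starved shoots.

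Galactolipid and sulfolipid synthesis was the list with most members, 5 of 7 genes with a named probe set. MGD2 and MGD3 encode the monogalactosyldiacylglycerol synthases that act under phosphate shortage, SQD1 and SQD2 make the sulfolipid headgroup and the sulfolipid, and UGP3 makes UDP-glucose for SQD1 in the plastid. MGD3 had log2 values of 4.23, 4.29 and 4.05 in mock, 10.99, 11.17 and 10.16 in starved and 4.36, 4.43 and 4.24 in replete roots. The shoot arrays had 3.78, 4.19 and 3.83 in mock, 9.01, 9.44 and 8.01 in starved and 3.73, 3.81 and 4.1 in replete arrays. Its root rise of 6.58 was the largest of all members, and replete and mock arrays overlapped in both organs. MGD2 had 4.19, 4.26 and 4.12 in mock, 8.19, 8.24 and 7.13 in starved and 4.03, 4.20 and 4.14 in replete arrays. Its shoot values were 4.11, 4.14 and 4.01 in mock, 7.67, 8.30 and 7.22 in starved and 4.01, 4.07 and 3.92 in replete arrays. The 2 organs were close to each other for MGD2 in all 3 conditions, with rises of 3.66 in roots and 3.64 in shoots.

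SQD2 had 5.95, 6.27 and 6.48 in mock, 10.44, 10.80 and 9.80 in starved and 6.23, 6.17 and 6.17 in replete roots, and a shoot rise of 2.96. SQD1 and UGP3 had much higher mock values in shoots than in roots. The log2 values of SQD1 were 7.10, 7.36 and 7.36 in mock roots and 9.75, 9.93 and 9.83 in mock shoots, and those of UGP3 3.71, 3.95 and 3.81 and 6.90, 7.20 and 7.03. In starved arrays SQD1 had 10.77, 10.70 and 10.08 in roots and 11.61, 12.04 and 11.17 in shoots, and UGP3 6.99, 7.21 and 5.97 and 8.82, 9.07 and 8.25. Both thus had the larger rise in the organ where they were lower in mock plants, SQD1 by 3.24 in roots and 1.77 in shoots and UGP3 by 2.90 and 1.67. The other listed genes with a named probe set, DGD1 and DGD2, encode digalactosyldiacylglycerol synthases and were called higher in starved roots (1.18, SE 0.12, and 1.49, SE 0.11). In shoots the differences were 0.79 (SE 0.12, adjusted p 0.0014, limma) for DGD1 and 0.05 for DGD2. The median rise over the 5 members was 3.66 in roots and 2.96 in shoots.

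Phospholipid breakdown frees phosphate and diacylglycerol for these lipids. PLDZ2 encodes a phospholipase D, and GDPD1 and GDPD2 encode glycerophosphodiester phosphodiesterases, which split the deacylated lipid headgroups. PLDZ2 had log2 values of 3.99, 3.99 and 4.07 in mock, 8.22, 8.75 and 7.78 in starved and 3.96, 3.99 and 4.28 in replete roots. Its values in shoots were 4.33, 4.32 and 4.22 in mock, 7.84, 8.16 and 6.96 in starved and 4.66, 4.72 and 4.70 in replete arrays. Mock arrays hardly differed from each other, and the replete arrays lay above all of them in shoots but not in roots.

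GDPD1 had log2 values of 6.63, 6.79 and 6.75 in mock, 11.05, 11.15 and 10.53 in starved and 7.14, 7.28 and 7.35 in replete roots. In shoots it had 4.73, 5.35 and 5.36 in mock, 10.51, 10.78 and 9.88 in starved and 4.84, 5.16 and 5.04 in replete arrays. Starved values were alike in the organs, mock values were lower in shoots, and replete roots lay above all mock roots. It was 1 of the 2 members whose rise was larger in shoots by at least 1, the other being a probe set with no name here. GDPD2 differed strongly between organs in every condition, at 7.41, 7.59 and 7.75 in mock roots and 3.05, 3.34 and 3.72 in mock shoots. Starved arrays had 9.0, 9.16 and 9.24 in roots and 5.50, 6.32 and 5.40 in shoots, and every starved shoot array was still below every mock root array. Of 16 listed genes, 6 had a named probe set, and of the 3 that were no members GDPD5 (1.37, SE 0.18) and PAH1 (1.34, SE 0.14) were called higher in starved roots and none in starved shoots.

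For carbon metabolism, 2 of 7 genes with a named probe set were members. PPCK2 encodes a kinase that activates phosphoenolpyruvate carboxylase, and SPS1F encodes a sucrose-phosphate synthase. PPCK2 had log2 values of 6.09, 6.34 and 6.31 in mock, 8.46, 8.34 and 8.47 in starved and 6.83, 6.94 and 7.07 in replete roots. The shoot arrays had 3.05, 3.28 and 3.32 in mock, 6.12, 6.66 and 4.66 in starved and 3.31, 3.29 and 3.26 in replete arrays. Replete roots lay above all mock roots, so that 67.8% of the root rise was reversed, against 97.3% in shoots. SPS1F was at the edge of the rule in shoots, where its rise was 1.0 after 1.46 in roots. Of the 5 other listed genes, 3 were called higher in starved roots and none in starved shoots.

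NF-YA7, 1 of the 4 NF-YA genes with a named probe set, encodes an A subunit of the CCAAT-binding factor NF-Y. Its log2 values were 6.22, 6.36 and 6.22 in mock, 8.26, 8.48 and 8.34 in starved and 6.57, 6.95 and 7.13 in replete roots. In shoots they were 7.26, 7.09 and 7.20 in mock, 8.44, 9.08 and 8.32 in starved and 6.98, 7.27 and 6.85 in replete arrays. Replete roots lay above all mock roots, and 70.5% of the root rise was reversed. NF-YA2 (1.29, SE 0.15) and NF-YA10 (1.26, SE 0.20) were called higher in starved roots. Their shoot differences of 0.45 (SE 0.15) and 0.55 (SE 0.20) were not called, which does not show that the organs differed. NF-YA3 just missed the call in roots (0.81, SE 0.14, adjusted p 0.00103, limma) and had 0.25 in shoots.

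Among 5 sulfur genes with a named probe set, SUFE2 and LSU2 were members. SUFE2 encodes an activator of the plastid cysteine desulfurase, and LSU2 belongs to a small family named for its response to low sulfur. Both varied widely in plants with phosphate. LSU2 had log2 values of 7.57, 7.22 and 7.02 in mock, 8.98, 9.06 and 8.16 in starved and 7.49, 6.31 and 6.59 in replete roots. Its values in shoots were 7.24, 8.10 and 8.29 in mock, 8.76, 9.09 and 9.19 in starved and 7.78, 8.88 and 8.61 in replete arrays, and starved and replete shoots overlapped. SUFE2 had 6.79, 6.52 and 7.23 in mock, 8.77, 8.97 and 8.55 in starved and 7.31, 6.01 and 7.0 in replete arrays, a rise of 1.92. Its shoot rise was 1.18. Of the 3 other sulfur genes, SULTR1;3 (2.81, SE 0.27) and APS4 (0.70, SE 0.11) were called higher and APS3 (-1.40, SE 0.23) lower in starved roots.

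The remaining 41 members were in no list. AT3G43110, a gene with no symbol here, had a rise of 2.92 in roots and 2.89 in shoots. Its log2 values were 4.83, 4.98 and 5.15 in mock, 8.06, 8.42 and 7.24 in starved and 4.96, 5.0 and 4.71 in replete arrays. In shoots they were 3.92, 3.90 and 3.79 in mock, 7.01, 7.71 and 5.56 in starved and 3.59, 3.73 and 3.67 in replete arrays. The starved arrays of each organ ranked 2, 1, 3 from the highest, as for most members. AIG2L, named for a resemblance to the avirulence-induced gene AIG2, had 4.71, 4.88 and 4.59 in mock, 7.23, 7.53 and 6.89 in starved and 4.80, 4.94 and 4.75 in replete roots. In shoots it had 3.58, 3.32 and 3.22 in mock, 4.36, 4.67 and 4.31 in starved and 3.86, 3.49 and 3.64 in replete arrays, a rise only just past the rule at 1.07.

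In some members a single array of mock and of replete shoots stood apart. AT2G20670 had log2 values of 7.28, 9.39 and 9.80 in mock, 9.99, 10.53 and 10.76 in starved and 8.57, 10.18 and 10.20 in replete shoots. Its root values were 6.16, 6.85 and 6.71 in mock, 8.01, 8.15 and 8.09 in starved and 6.65, 7.29 and 7.20 in replete arrays. Mock and replete shoot arrays 1 were the low ones, and replete arrays 2 and 3 lay above the lowest starved shoot array. In AT3G07350 the same shoot arrays were low, with 6.80, 7.97 and 8.33 in mock, 9.0, 9.46 and 9.23 in starved and 7.72, 8.57 and 8.65 in replete arrays, but in roots its starved values of 8.90, 8.99 and 8.34 were clear of 5.31, 5.42 and 5.50 in mock and 5.62, 6.02 and 6.21 in replete arrays. AT5G19120, named here after its values were seen, had the same low arrays, at 7.28, 9.11 and 9.71 in mock, 9.93, 10.54 and 10.69 in starved and 7.88, 9.77 and 9.96 in replete shoots. The cause was not tested.

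AT4G35750 varied more in replete roots (SD 0.35) than in its other groups, with log2 values of 9.90, 10.20 and 10.05 in mock, 11.33, 11.25 and 11.48 in starved and 10.40, 10.94 and 11.05 in replete roots. The shoot arrays had 9.76, 9.67 and 9.79 in mock, 10.96, 11.02 and 10.93 in starved and 9.36, 9.62 and 9.42 in replete arrays. The replete arrays lay above all mock arrays in roots and below them in shoots. SPD1, named for seedling plastid development, had root values of 6.73, 6.39 and 6.36 in mock, 8.0, 8.03 and 7.58 in starved and 6.19, 6.68 and 6.69 in replete arrays. Its shoot values were 8.83, 8.38 and 8.67 in mock, 9.73, 10.08 and 9.35 in starved and 8.11, 7.79 and 7.78 in replete arrays, with replete below mock in every array, while replete and mock roots overlapped. AT3G61410 had a difference between organs in every condition that was larger than its rises, at 7.80, 7.41 and 7.11 in mock roots and 3.25, 3.09 and 2.73 in mock shoots against rises of 1.12 and 1.52.

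The recovery, replete against starved, asked which members fell once phosphate was back. Every replete array lay below every starved array for 65 members in roots and 60 in shoots, an order found for 21.8% of all probe sets in roots and 13.8% in shoots. The starved arrays that chose the members also enter this comparison, so these counts are not independent of the rule. At a limma adjusted p at or under 0.001, 51 of the 66 members were lower in replete than in starved roots, a call made for 2.78% of all probe sets. In shoots 47 were lower, a call made for 0.601%. None was higher in either organ. The count in shoots was 20 with each organ fitted on its own, 19 with Bonferroni adjustment, 30 without starved shoot array 1 and 31 without starved shoot array 2. The count in roots was 28 with Bonferroni adjustment.

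The fall was called in both organs for 42 members, in roots alone for 9, in shoots alone for 5 and in neither for 10. MGD3 fell by 6.43 in roots (SE 0.28, limma adjusted p 2.8e-10) and by 4.94 in shoots (SE 0.28, adjusted p 1e-08). SPX1 fell by 5.76 and fell by 4.59 (both SE 0.20), and GDPD1 fell by 3.65 and fell by 5.38 (both SE 0.21). The 3 members in lists that were called in roots alone were UGP3, SUFE2 and LSU2, with shoot differences of -1.48 (SE 0.24), -1.15 (SE 0.29) and -0.59 (SE 0.34). PPCK2, ITPK2 and AT4G35750 were called in shoots alone, with root differences of -1.48, -0.95 and -0.56. These calls on 1 side do not show that the organs differed. The shoot calls of PPCK2 and ITPK2 were lost without starved shoot array 1 (adjusted p 0.00126 and 0.00115), the root call of SUFE2 without starved root array 2 (0.0012) and that of LSU2 without any of 10 arrays (up to 0.00587). With the replicate number as a block the root call of LSU2 was also lost (adjusted p 0.00115). With each organ fitted on its own, 3 root calls and 12 shoot calls of named members were lost. In roots they included SUFE2 (limma adjusted p 0.00175) and LSU2 (0.00258). In shoots they included PPCK2 (0.00597), ITPK2 (0.00258), SPX3 (0.00363), PEPC1 (0.0026), G3Pp1 (0.00133), PAP24 (0.00722) and PPA4 (0.00722). The shoot calls of PAP24 and PPA4 were each also lost without any of 14 arrays (up to 0.00441 and 0.00585). The shoot call of SPX3 was lost without any of the starved shoot arrays 1 and 2 and the 3 replete shoot arrays (up to 0.00212).

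The difference between the recoveries of the organs was itself tested, and 3 members were called, all lower in roots, a call made for 0.57% of all probe sets. SPX3 fell by 5.60 in roots and fell by 2.54 in shoots, a difference of -3.05 (SE 0.47, adjusted p 0.00068, limma). PAP17 fell by 5.35 and fell by 3.28, a difference of -2.07 (SE 0.30). AIG2L fell by 2.39 in roots, and its shoot difference of -0.78 was not called. None of the 3 calls held without starved shoot array 1, without starved root array 1 or without replete root array 3, where the adjusted p of AIG2L reached at most 0.00113. The adjusted p reached 0.00182 for PAP17, whose call was lost without any of 7 arrays, and 0.00278 for SPX3, whose call was lost without any of 14. The count of calls was 1 without replete shoot array 1, replete shoot array 2, starved root array 2 or replete root array 2, and 6 without starved shoot array 3.

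The share of the rise that was reversed had a median of 98.3% over the members in roots (40.1% to 132%) and 102.5% in shoots (48.4% to 170%). A share over 100% means that the replete mean was below the mock mean. It lay within 25 percentage points of 100% for 55 members in roots and 50 in shoots, and below 75% for 9 and 8. The lowest root shares were those of AT5G19120 (40.1%), AT4G35750 (42.7%) and ITPK2 (52.8%). The lowest shoot shares were those of AT2G20670 (48.4%), LSU2 (51.9%) and a probe set with no name here (53.9%). By list, the median share in roots was 98.1% for signalling, 99.8% for galactolipid and sulfolipid synthesis, 91.8% for phospholipid breakdown and 106% for purple acid phosphatases. In shoots it was 126% for signalling, 102% for galactolipid and sulfolipid synthesis, 90.6% for phospholipid breakdown and 96.8% for purple acid phosphatases.

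Replete against mock asked what remained of the difference after 3 days with phosphate, in plants 3 days older, and it shares the mock arrays with the rule. The median over the members was 0.03 in roots and -0.09 in shoots, against -0.01 in both organs over all probe sets. At the same threshold limma called no member in either organ, a call made for 0.0658% of all probe sets in roots and 0.0219% in shoots. At an unadjusted p under 0.05 there were 13 members in roots, 12 higher and 1 lower, and 9 in shoots, 1 higher and 8 lower. These were 19.7% and 13.6% of the members, against 18.3% and 18.7% of all probe sets. The SE pools the spread of all 6 groups, so these calls do not rest on the spread of replete and mock arrays alone. In shoots PLDZ2 had an SD of 0.06 in mock, 0.62 in starved and 0.03 in replete arrays. AT2G20670 went the other way, with 1.35, 0.40 and 0.94. A member that was not called was not shown to be back at its mock level.

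The arrays of replete and mock plants were apart for some members. All replete arrays lay above all mock arrays for 17 members in roots and 5 in shoots, an order that 11.5% and 10.9% of all probe sets had. They lay below all mock arrays for 6 members in roots and 13 in shoots, against 11.1% and 13.6% of all probe sets. The lowest adjusted p in roots was that of AT4G35750 (0.75, SE 0.14, adjusted p 0.0098, limma), and ITPK2 had 0.85 (SE 0.23, adjusted p 0.056). The lowest in shoots was that of SPX1 (-1.10, SE 0.20, adjusted p 0.015). PHF1 (-0.40, SE 0.10), SPX2 (-0.42, SE 0.12) and PAP17 (-0.79, SE 0.21) also had replete shoots below mock shoots in every array, and none passed the threshold. Over all members the lowest difference in roots was that of G3Pp1 (-0.91, SE 0.34).

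Roots and shoots of plants with phosphate were compared by contrasts that hold no starved group. The SE of these contrasts still pools the spread of all 6 groups, starved arrays included. In replete plants, whose arrays had no part in the rule, 16 members were higher in roots and 12 lower than in shoots at a limma adjusted p at or under 0.001, calls made for 26.9% and 19.1% of all probe sets. These shares of 66 are near the background. In mock plants 15 were higher in roots and 14 lower, against 24.4% and 18.3% of all probe sets. Replete and mock plants shared 14 of the members called higher in roots (87.5% of those in replete and 93.3% of those in mock plants) and 11 of those called lower (91.7% and 78.6%), and none was called in opposite directions. Over all probe sets these shares were 81% and 89.2% for calls higher in roots and 87.6% and 91.3% for calls lower, so nothing particular to the members is read from them.

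The members highest in roots relative to shoots of replete plants were AT3G61410 (4.25, SE 0.29), GDPD2 (4.12, SE 0.24), PPCK2 (3.66, SE 0.31) and ITPK2 (2.30, SE 0.23). The lowest with a gene name were UGP3 (-3.34, SE 0.24), AT2G20670 (-2.60, SE 0.51), AT3G07350 (-2.36, SE 0.32) and SQD1 (-2.22, SE 0.20). Lipid genes were on both sides, with GDPD1 (2.24) and GDPD2 higher in roots and SQD1 and UGP3 lower, while MGD2 (0.12) and MGD3 (0.46) were not called. Of the phosphate signalling and transport members, PHF1 (1.62, SE 0.10) and PHO1;H1 (1.56, SE 0.17) were higher in roots and no SPX gene was called. PAP17 was lower in roots (-1.77, SE 0.21), against -3.23 in mock plants. The call of AT2G20670 was lost without any of the replete shoot arrays 2 and 3 and replete root array 1 (adjusted p up to 0.00193).

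Comparisons between organs depended on the scaling. Centring each array on reference genes moved the median of all probe sets in root minus shoot by -0.24 in replete and -0.12 in mock plants, and the split of all calls in replete plants from 6132 higher and 4349 lower in roots to 4157 and 5964. Under that scaling the members' calls were 16 higher and 15 lower in replete plants. In mock plants they were 14 higher and 16 lower, against 4536 and 4558 over all probe sets. Centring on spike-ins changed the split little, to 6197 higher and 4165 lower over all probe sets in replete plants. The members' calls were then 16 higher and 11 lower in replete plants, and 15 higher and 13 lower in mock plants.

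The members with a gene name just inside the rule were AT5G60270, a lectin receptor kinase gene, with rises of 1.0 in roots and 1.35 in shoots, SPS1F (1.46 and 1.0) and AIG2L (2.49 and 1.07). A pair of probe sets with no name here lay nearer to the threshold than AIG2L, with rises of 1.04 and 1.39 and of 1.04 and 2.90. Just outside were HIS1-3 (0.97 and 1.40), AT1G52800 (1.63 and 0.97) and XTH19 (0.96 and 1.81), which met the rest of the rule. Asking for a rise of at least 1.5 in both organs left 35 members, and asking for 0.8 gave 90.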

How the data were processed

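Values in the deposited table are log2. The labels and methods state that the authors ran affy in R, with background correction, quantile normalization and median polish over the probes of a probe set, and its version is not given in the sources used here. The values were used as deposited, with 0 sample columns left unused. A linear model of 6 group means was fitted to the 22810 probe sets in limma 3.58.1 (lmFit, eBayes; R 4.3.3) and checked on simulated data. A contrast was called where its Benjamini-Hochberg adjusted p, two-sided and over all probe sets, did not exceed 0.001, and SE is that of the fit. All adjusted p-values are from limma.

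The members and lists were chosen with earlier results of these data known. Genes set aside by name included the purple acid phosphatase PAP1, taken as AT1G13750. Named members were those in a list, the 10 largest rises in either organ, the 3 highest and 3 lowest replete minus mock in either organ, the 4 highest and 4 lowest root minus shoot in replete plants, and, among probe sets with 1 gene, the 3 nearest the threshold from above and the 3 nearest from below. Gene names came from the platform table or else from probe set names in the study's supplementary tables, whose values were not used. A probe set that these sources do not name may still have a gene. Probe sets of several genes were counted and not named. Alternatives were other thresholds, adjustments, scalings and priors, array weights, a filter on low values, a replicate block and leaving out arrays. No promoter sequence was used here.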

Additional observations from a re-analysis of the deposited data

Results flagged for a closer look

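The recovery was called as differing between roots and shoots for 3 members, by the limma test of the difference itself, with both recoveries resting on 3 starved and 3 replete arrays of the organ. SPX3 had a replete minus starved difference of -5.60 in roots and -2.54 in shoots, and the root minus shoot difference was -3.05 (adjusted p 0.00068). PAP17 had -5.35 and -3.28, which gave -2.07 (adjusted p 0.00042). AIG2L had -2.39 and -0.78, which gave -1.60 (adjusted p 0.00028). None of the 3 calls held without starved shoot array 1, without starved root array 1 or without replete root array 3. Bonferroni adjustment left 0 calls. The starved arrays also chose these members, whose rises were larger in roots too. As a share of the rise, the fall in roots and in shoots was 98.1% and 81.9% for SPX3. For PAP17 it was 88.8% and 132%, and for AIG2L 95.85% and 73.0%. In mock plants PAP17 was lower in roots than in shoots by limma (-3.23, SE 0.21), AIG2L was higher in roots and SPX3 was not called.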

How the results depend on the processing

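Counts of members stayed within 1.5 times of those given except as follows. Bonferroni adjustment left 28 members lower in root recovery, 19 in shoot recovery, 12 called between replete roots and shoots, 13 between mock roots and shoots, and 0 for the recovery difference between organs. An adjusted p at or under 0.05 gave 1 member in replete minus mock in each organ and 19 for the recovery difference. Array weights gave 1, 1 and 6 for the same comparisons. A fit within each organ gave 20 in shoot recovery. Leaving out 1 array at a time gave 42 to 56 members in root recovery, 30 to 51 in shoot recovery, 0 to 1 in root and 0 in shoot replete minus mock (1 without replete root array 1), 25 to 29 and 24 to 34 between the organs in replete and mock plants, 0 to 6 for the recovery difference and 58 to 79 members by the rule. Without both starved arrays numbered 3, an alternative chosen after seeing the data, the counts were 58, 51, 0, 0, 33 and 36, with 10 for the recovery difference. The rule gave 35 members at a rise of at least 1.5, 64 after centring on reference genes (63 shared with the 66) and 57 on spike-ins (all 57 shared). With the replicate number as a block the counts were 55 and 51 for recovery, 0 and 0 for replete minus mock, 28 and 29 between organs and 3 for the recovery difference, and no count moved by over 1.5 times. Of the calls of named members, the block ended that of LSU2 in root recovery alone. The study describes replicate experiments but the labels do not tie a number to one. Correlations between arrays of the same number were over 0.1 in 20 of 45 pairs (-0.11 to 0.45), with all 3 over 0.1 in 1 of 15 pairs of groups, mock and replete shoots (0.15 to 0.30), and every array correlated best with its own number in 3 of the 15. Mock and replete shoots were among these 3, so their arrays went together by number on both measures, and no other pair of groups did. As the labels give no link, the pairing was not treated as settled for any groups. For replete minus mock in shoots the block left the count at 0. Over the 94 calls of named members, 2640 values under alternatives held 233 that lost the call and none that turned direction. Leaving out at least 1 array lost 24 of the 94 calls. The causes were not tested. With 3 arrays a group and no scanner files or detection calls used here, changes among low values cannot be resolved.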

Other observations

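Several members in no pathway list have a known role, and they are named here after their values were seen. NRX2, which encodes a nucleoredoxin, had log2 values of 6.36, 6.44 and 6.64 in mock, 9.08, 9.20 and 9.02 in starved and 7.04, 6.68 and 7.01 in replete roots. In shoots it had 4.98, 5.26 and 5.34 in mock, 6.08, 7.10 and 6.88 in starved and 5.09, 5.39 and 5.44 in replete arrays. Its rise was 2.62 in roots and 1.49 in shoots, and it was called lower in replete than in starved arrays of both organs by limma. MAPKKK19, a protein kinase gene, had a rise of 2.73 in roots and 1.10 in shoots, and its recovery was called in roots alone. CRF8, which encodes an AP2/ERF transcription factor named as a cytokinin response factor, had rises of 2.01 and 1.66. FMN/FHY, for the enzyme that makes flavin cofactors from riboflavin, had rises of 1.73 and 1.11. Both were called lower in replete than in starved arrays of both organs.

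SWEET13, a sucrose transporter gene, had rises of 1.20 in roots and 1.38 in shoots, and its recovery was called in neither organ. Its values were 5.94, 6.41 and 6.16 in mock, 7.87, 7.87 and 6.91 in starved and 6.62, 6.02 and 5.60 in replete shoots. MCC1, which encodes an acetyltransferase, had rises of 1.13 and 1.27 and was higher in roots than in shoots of both mock and replete plants. Among the 6 members with no name here, the probe set with the largest shoot rise had 1.04 in roots and 2.90 in shoots, the widest gap in favour of shoots among the members.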
